A study of Mus musculus with 10 samples.

Results

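The genes described here are the integrins, laminins and collagens of the mouse together with the matrix glycoproteins Fn1, Sparc, Nid1, Nid2 and Hspg2. They were taken from a gene table by symbol (Itga, Itgb, Lama, Lamb or Lamc followed by digits or a letter, and Col, digits, a, digits). The rule itself uses no measured value, but it was chosen with earlier results of these data known. The rule gave 80 of the 26857 entries of the table: 17 integrin alpha chains, 8 integrin beta chains, 10 laminin chains, 6 collagen IV chains, 11 fibrillar collagen chains, 23 other collagen chains and the 5 glycoproteins. No member had a failed estimate, 7 were listed at 0 in every hairpin, and 73 were tested. Of these, 27 averaged at least 1 FPKM, a read density that is corrected for transcript length and library size, over the 4 hairpins and are called expressed below, and 46 averaged less.

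The cells were V6.5, a mouse embryonic stem (ES) cell line, grown on gelatin without a feeder layer named in the labels. For RNA-seq they carried a lentiviral short hairpin against Rbfox2 (shFox2-1 or shFox2-2) or a control hairpin against luciferase (shLuc) or GFP (shGFP), were infected in duplicate, kept for 3 days in 1 ug/ml puromycin and harvested after 24 hours without it. The table holds 1 pooled value for each hairpin with a lower and an upper bound, so the spread that any test sees is that between the 2 hairpins of an arm. For iCLIP, which maps where a protein is crosslinked to RNA, other V6.5 cells carried doxycycline-inducible human RBFOX2, either with a FLAG-HA tag (FHFOX2) or untagged (UntagFOX2), were induced for 24 hours with 1 ug/ml doxycycline and were crosslinked at 150 mJ/cm2. There was 1 library of each kind, so the mapped protein is an expressed human one in mouse cells, without replicates.

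Integrins are receptors made of an alpha and a beta chain that span the plasma membrane, bind matrix outside the cell and connect to actin inside it. Laminins are trimers of an alpha, a beta and a gamma chain, and with the collagen IV network, the nidogens and perlecan they form the basement membrane, the sheet on which epithelia, including the epiblast of the early embryo, rest. Fibronectin and the fibrillar collagens belong to the interstitial matrix. Rbfox2 is an RNA-binding protein that recognises the element UGCAUG and regulates alternative splicing, and fibronectin pre-mRNA is among the RNAs in which that element was first studied, in rat.

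The targeted gene was lower with both hairpins. Rbfox2, named Rbm9 in the table (chr15:76912769-77137358, mm9), stood at 8.56 FPKM with shFox2-1 and 7.21 FPKM with shFox2-2, against 24.7 FPKM with shLuc and 23.3 FPKM with shGFP. Both knockdown intervals lay below both control intervals, and the log2 fold change of FPKM + 1 was -1.496 (SE 0.14, n = 2 hairpins in each arm); the adjusted p of limma over 20281 genes was 0.913. The cells had the transcripts of ES cells: the 10 ES cell markers measured summed to 1265 and 1072 FPKM with shFox2-1 and shFox2-2, and to 1057 and 1171 FPKM with shLuc and shGFP. The median FPKM of the 12632 expressed genes was 8.34 and 7.17 with shFox2-1 and shFox2-2, and 7.62 and 8.05 with shLuc and shGFP, so values are also given after scaling to the median gene where that changes a count.

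No member passed limma at an adjusted p under 0.05, and neither did any other gene (0% of 20281 genes). Among the expressed members only Itga3 had an unadjusted limma p under 0.05, with a lower value in the knockdown, against 2.17% of all tested genes lower and 2.3% higher. Further descriptions were used beside the test and read against all 12632 expressed genes. The strictest asks that both knockdown intervals lie on the same side of both control intervals; this held for 1 of the 27 expressed members, Itga3, on the lower side, where 0.119% of expressed genes lay, and for 0 members on the higher side, where 0.174% lay. With values alone, shFox2-1 and shFox2-2 were each below shLuc and below shGFP in 3 members (Itga3, Lamb2 and Col5a1), against 17.8% of expressed genes, and above both in 0 members, against 14.3%. After scaling to the median gene these counts were 4 below, against 17.4%, and 5 above, against 18.4%; Itga6, Itga5, Itgb7 and Itgb4 were among the 5, and Itgb1 joined the lower ones. The median log2 fold change of the 27 was 0.01, and that of all expressed genes was -0.01. RNA was extracted from whole cultures, so fewer cells that make a transcript and less transcript in each cell cannot be told apart.

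**Figure D1:**
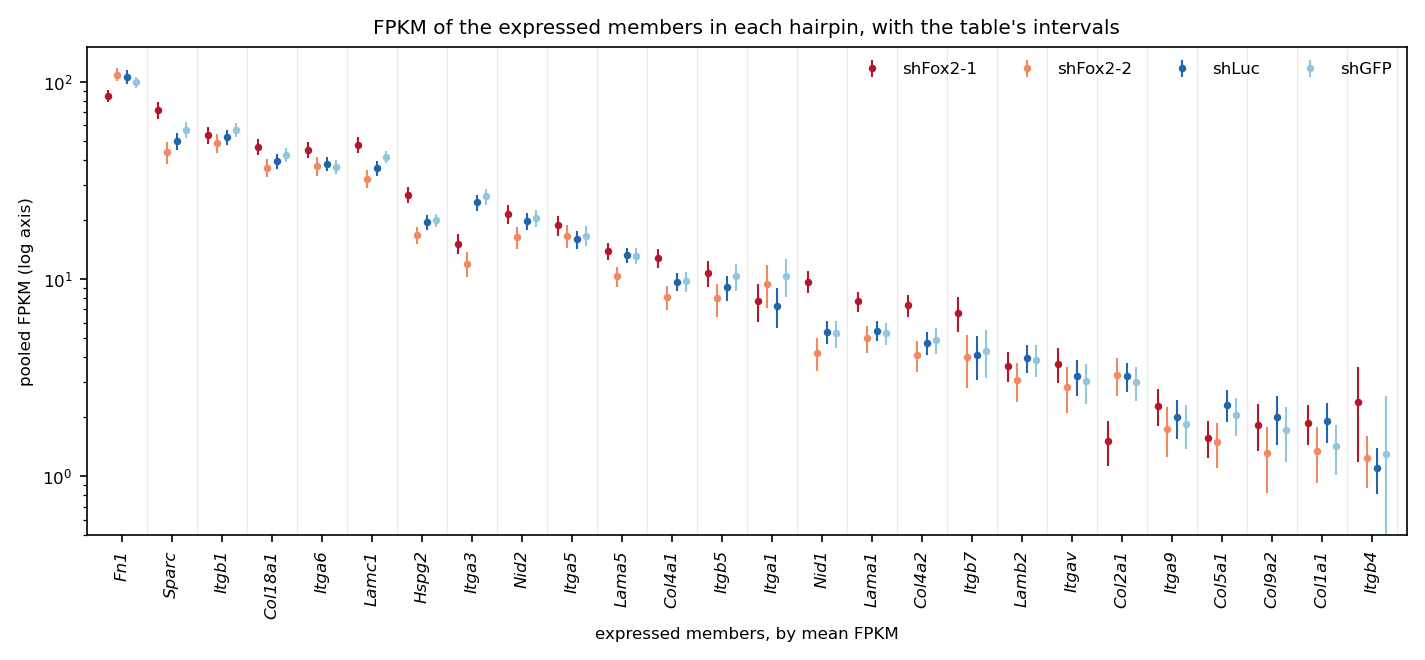
Pooled FPKM (log axis) of 26 of the 27 expressed members in each hairpin, ordered by mean FPKM; points are the table's values and bars its lower and upper bounds, and the lower bound of Itgb4 with shGFP, 0.032, runs off the axis. For Itga3 both knockdown points and bars lie under both control bars. For Sparc, Hspg2, Col4a1, Nid1, Lama1 and Col4a2 the shFox2-1 bar lies above the other 3.

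Itga3 (chr11:94887571-94938028) encodes the alpha chain that pairs with the Itgb1 product as a laminin receptor. Its level was 15.0 FPKM (interval 13.3 to 16.8) with shFox2-1 and 11.9 FPKM (10.2 to 13.6) with shFox2-2, against 24.4 FPKM (22.1 to 26.7) with shLuc and 26.2 FPKM (23.7 to 28.7) with shGFP. The knockdown values averaged 13.5 FPKM and the control values 25.3 FPKM, a ratio of 53.3%. The groups did not overlap in values or in intervals, also after scaling to the median gene. On the log2(FPKM + 1) scale the fold change was -0.87 (SE 0.15, n = 2 hairpins in each arm), with an unadjusted limma p of 0.00166 and an adjusted p of 0.933. The log2 difference from the mean of the controls was -0.71 with shFox2-1 and -1.02 with shFox2-2. The table gives Itga3 the same locus as Pdk2, a pyruvate dehydrogenase kinase gene, and does not give strand; Pdk2 was listed at 1.51 and 2.30 FPKM with shFox2-1 and shFox2-2, and at 2.51 and 2.15 FPKM with shLuc and shGFP, with intervals that did not separate.

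The other expressed alpha chains did not follow Itga3. Itga6 (chr2:71625140-71696539), which pairs with the Itgb1 or Itgb4 product as another laminin receptor, stood at 45.3 and 37.4 FPKM with shFox2-1 and shFox2-2, against 38.5 and 37.0 FPKM with shLuc and shGFP. Itga5 (chr15:103174717-103197194), the alpha chain of the classical fibronectin receptor, stood at 18.7 and 16.5 FPKM, against 15.9 and 16.6 FPKM. Itga1 (chr13:115837176-115892331), the alpha chain of a collagen receptor, stood at 7.72 and 9.44 FPKM, against 7.29 and 10.4 FPKM, with a low-data status in 3 hairpins. In none of these 3 did the intervals separate the knockdown hairpins from the controls. Itgav, a chain of several receptors for fibronectin and vitronectin, and Itga9 averaged 3.20 and 1.96 FPKM over the 4 hairpins, also with intervals that did not separate.

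The share of Itga3 among alpha chain transcripts differed as well. Itga3 made up 15.5% and 14.5% of the summed FPKM of the 17 alpha chains with shFox2-1 and shFox2-2, against 26.0% and 26.8% with shLuc and shGFP. Itga6 made up 46.6% and 45.5% of the same sum in the knockdown hairpins, against 41.0% and 37.8% in the controls. Itga5 made up 19.3% and 20.1%, against 16.9% and 17.0%. The knockdown and control shares did not overlap for any of these 3 chains. The shares of the other alpha chains were not compared in this way. By FPKM the values of Itga6 and Itga5 did overlap, and only those of Itga3 did not. Over all expressed genes, 17.8% were lower and 14.3% higher by value with both knockdown hairpins than with both controls. A share of 1 chain moves the shares of the rest, so these are 3 views of the same values and were not tested.

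**Figure D2:**
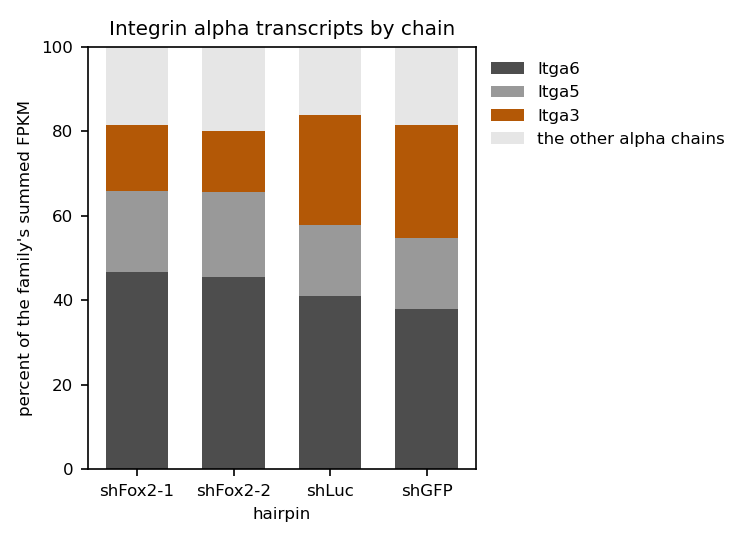
Share of each integrin alpha chain in the summed FPKM of the 17 alpha chains, in percent, for the knockdown hairpins shFox2-1 and shFox2-2 and the controls shLuc and shGFP, 1 pooled value per bar and no error bar. The Itga3 segment is 15.5% and 14.5% in the knockdown bars and 26.0% and 26.8% in the control bars.

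Among the beta chains, Itgb1 (chr8:131209681-131257097), the shared partner of most alpha chains named above, stood at 53.6 and 49.0 FPKM with shFox2-1 and shFox2-2, against 52.2 and 57.2 FPKM with shLuc and shGFP. It made up 72.2% and 77.7% of the summed FPKM of the 8 beta chains in the knockdown hairpins, against 77.6% and 77.4% in the controls. Itgb5 (chr16:33829845-33949232), a partner of Itgav, stood at 10.7 and 7.96 FPKM, against 9.06 and 10.3 FPKM. The groups overlapped for both chains. A pair of beta chains of low level had some of the highest fold changes among members at 1 to 5 FPKM: Itgb4, the partner of Itga6 in hemidesmosomes, stood at 2.39 and 1.23 FPKM, against 1.10 and 1.29 FPKM, and Itgb7, a chain of lymphocyte homing receptors, stood at 6.74 and 4.01 FPKM, against 4.10 and 4.32 FPKM. In both, shFox2-1 was the high hairpin by value. Its interval overlapped both control intervals for Itgb4 and that of shGFP for Itgb7. The interval of shFox2-2 overlapped those of both controls for both genes. The log2 fold changes were 0.33 (SE 0.23) and 0.26 (SE 0.24). Itgb4 had a low-data status in 2 hairpins and shares its locus in the table with Galk1, at 32.0 and 27.6 FPKM, against 30.6 and 39.6 FPKM.

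Of the 10 laminin chains 5 were expressed, Lama1, Lama5, Lamb2 and Lamc1 among them. Lamc1 (chr1:155066052-155179916), the gamma chain of most laminins, stood at 47.8 and 32.3 FPKM with shFox2-1 and shFox2-2, against 36.3 and 41.6 FPKM with shLuc and shGFP. Lama5 (chr2:179911078-179960564), an alpha chain that supports ES cell growth in culture as part of a recombinant laminin, stood at 13.8 and 10.3 FPKM, against 13.2 and 13.1 FPKM. Lama1 (chr17:68046605-68171985), the alpha chain of the laminin of the early embryo, stood at 7.72 and 4.998 FPKM, against 5.46 and 5.30 FPKM. In all 3 the shFox2-1 value lay above both controls and the shFox2-2 value below both, where 50.2% and 54.2% of expressed genes did. After scaling to the median gene only Lamc1 kept both. Lama5 with shFox2-1 and Lama1 with shFox2-2 then no longer lay beyond both controls. Lamb2, a beta chain of synaptic and vascular laminins, stood at 3.64 and 3.07 FPKM, against 3.97 and 3.90 FPKM, with all intervals overlapping.

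The 2 expressed collagen IV chains had the same order over the hairpins. Col4a1 (chr8:11198431-11312730) stood at 12.8 and 8.06 FPKM with shFox2-1 and shFox2-2, against 9.68 and 9.74 FPKM with shLuc and shGFP. Col4a2 (chr8:11313024-11449215) stood at 7.36 and 4.10 FPKM, against 4.74 and 4.91 FPKM. For both genes the shFox2-1 interval lay above the other 3 hairpins' values and the shFox2-2 value lay below both controls. Their log2 fold changes were 0.06 (SE 0.22) and 0.17 (SE 0.26), since the hairpins offset each other. The other 4 collagen IV chains, Col4a3, Col4a4, Col4a5 and Col4a6, averaged 0.0019, 0.00868, 0.281 and 0.0745 FPKM.

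Col4a1 and Col4a2 are known to lie head to head and to be transcribed in opposite directions from a shared promoter; in the table their loci are 293 bases apart. Their promoter windows are shown because these chains were high and low in the same hairpins. Each runs from 250 bases before to 50 bases after the gene start in RefSeq on GRCm38.p6, a later build than that of the table, 5′ to 3′ on the gene's own strand, and the capitals mark the 78 bases (chr8:11312777-11312854) that both windows hold, each as the reverse complement of the other. The Col4a1 window is chr8:11312777-11313076 on the minus strand and the Col4a2 window chr8:11312555-11312854 on the plus strand. Both RefSeq gene starts lie inside the capitals, which therefore hold the 50 bases after each start. In RefSeq the genes thus overlap at their starts, unlike the loci of the table. The capitals are not a stretch between the genes.
Col4a1: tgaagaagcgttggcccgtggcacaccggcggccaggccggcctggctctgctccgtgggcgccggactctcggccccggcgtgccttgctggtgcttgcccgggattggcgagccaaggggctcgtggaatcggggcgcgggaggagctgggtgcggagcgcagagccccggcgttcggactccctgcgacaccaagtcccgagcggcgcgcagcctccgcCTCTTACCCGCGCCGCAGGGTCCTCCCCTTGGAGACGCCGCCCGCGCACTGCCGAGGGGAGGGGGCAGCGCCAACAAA
Col4a2: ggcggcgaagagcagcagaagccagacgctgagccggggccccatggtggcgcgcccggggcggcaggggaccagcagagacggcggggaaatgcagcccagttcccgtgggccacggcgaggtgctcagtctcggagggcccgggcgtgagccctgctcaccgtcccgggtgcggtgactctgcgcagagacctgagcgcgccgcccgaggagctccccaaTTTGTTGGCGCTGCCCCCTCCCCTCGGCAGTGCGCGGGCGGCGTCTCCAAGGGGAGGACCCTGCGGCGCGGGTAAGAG

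The windows hold 74% and 73.7% G and C, against a median of 52.7% over the 32851 promoter windows of the RefSeq table. The GC box GGGCGG, searched on both strands, occurs 1 time in the Col4a1 window and 3 times in the Col4a2 window, 1 of them inside the shared bases, and 35.7% of all windows hold it. CCAAT occurs 1 time in each window and in 37.4% of all windows. TATAAA occurs in neither and in 13.6% of all windows. A match of GGGCGG and 1 of CCAAT can share at most 2 letters, and a match describes letters, not a bound site. Of the 80 members, 56 had a window in the table.

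Of the other collagens, Col18a1 (chr10:76514924-76629246), a basement membrane collagen whose C-terminal fragment is endostatin, stood at 46.7 and 36.6 FPKM with shFox2-1 and shFox2-2, against 39.6 and 42.7 FPKM with shLuc and shGFP. The fibrillar collagens were scarce. Col5a1, which nucleates collagen fibrils, stood at 1.57 and 1.48 FPKM, against 2.30 and 2.04 FPKM, lower with both knockdown hairpins but with intervals that did not separate; its log2 fold change was -0.33 (SE 0.15). Col2a1, the collagen of cartilage, stood at 1.51 and 3.26 FPKM, against 3.20 and 2.98 FPKM, so shFox2-1 alone was low; its status was low-data in both controls. Col1a1, of skin and bone, lay just inside the threshold for expressed genes at a mean of 1.63 FPKM (1.87 and 1.35 FPKM with shFox2-1 and shFox2-2, against 1.91 and 1.42 FPKM with shLuc and shGFP), as did Itgb4 at 1.503 FPKM. Itga7, a laminin receptor chain of muscle, lay just outside it at a mean of 0.959 FPKM (1.497 and 0.673 FPKM, against 0.969 and 0.696 FPKM). Lamb3, a chain of epithelial laminin, followed at 0.763 FPKM (0.683 and 0.914 FPKM, against 0.653 and 0.802 FPKM).

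The glycoproteins Fn1 and Sparc had the highest FPKM of all members. Fn1 (chr1:71632097-71704032), fibronectin, stood at 84.9 and 109 FPKM with shFox2-1 and shFox2-2, against 106 and 99.2 FPKM with shLuc and shGFP, so shFox2-1 lay below the controls and shFox2-2 above them by value. Sparc (chr11:55208003-55233368), a collagen-binding matricellular protein, stood at 72.0 and 43.8 FPKM, against 50.02 and 57.2 FPKM. Hspg2 (chr4:137024724-137126545), perlecan, stood at 26.7 and 16.7 FPKM, against 19.4 and 19.9 FPKM. Sparc and Hspg2 had the reverse order of Fn1, with shFox2-1 high and shFox2-2 low. The nidogens bridge laminin and collagen IV. Nid1 (chr13:13529958-13604531) stood at 9.67 and 4.201 FPKM, against 5.40 and 5.30 FPKM, and Nid2 (chr14:20570479-20643045) at 21.3 and 16.3 FPKM, against 19.6 and 20.3 FPKM. Of the 2, Nid1 had the wider gap between the knockdown hairpins, a log2 difference from the controls of 0.75 with shFox2-1 and of -0.29 with shFox2-2.

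The members' intervals were apart between the 2 knockdown hairpins more often than between the knockdown and control arms, as were those of all expressed genes. Setting 1 hairpin against 1 is also less strict than setting 2 against 2. The members' intervals were narrower relative to the value, at the median, than those of all expressed genes. The shFox2-1 interval lay above both control intervals in 7 expressed members, including Sparc, Hspg2, Col4a1, Nid1, Lama1 and Col4a2, against 5.44% of expressed genes, and below both in 3 (Fn1, Itga3 and Col2a1), against 2.11%. The shFox2-2 interval lay above both control intervals in 0 members, against 0.348% of expressed genes, and below both in 2 (Itga3 and Lama5), against 1.98%; after scaling to the median gene this was 1, Itga3, against 0.752%. Compared directly, the shFox2-1 interval lay above the shFox2-2 interval in 12 members, against 13% of expressed genes, and below it in 2, Fn1 and Col2a1, against 1.97%. After scaling, the count of shFox2-1 intervals above both controls was 5, with Sparc and Col4a1 lost, against 3.07% of expressed genes, and the count of shFox2-1 intervals above shFox2-2 intervals was 7, against 4.92%. The scaled counts below were 3 and 2, against 426 and 843 of the 12632 expressed genes. The shLuc and shGFP intervals were apart in 0 members, against 1.19% of expressed genes.

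By values alone, shFox2-1 lay above both controls in 18 of the 27 members and below both in 5, where 50.2% and 28.1% of expressed genes did. With shFox2-2 the counts were 2 above and 20 below, where 23.4% and 54.2% of expressed genes did. After scaling to the median gene 16 members lay above both controls with shFox2-1, against 38.5% of expressed genes, and 7 below both, against 41.1%. With shFox2-2 the scaled counts were 8 above both, against 40.5%, and 15 below both, against 35.5%. In 9 members the interval of 1 knockdown hairpin lay outside both control intervals and the value of the other lay beyond both controls on the opposite side, against 3.86% of expressed genes; after scaling this held for 5, against 3.01%. The median log2 difference from the controls was 0.18 with shFox2-1 and -0.18 with shFox2-2 over the members, and 0.07 and -0.09 over all expressed genes. Both knockdown hairpins are set against the same control values, so these counts are not independent of each other.

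**Figure D3:**
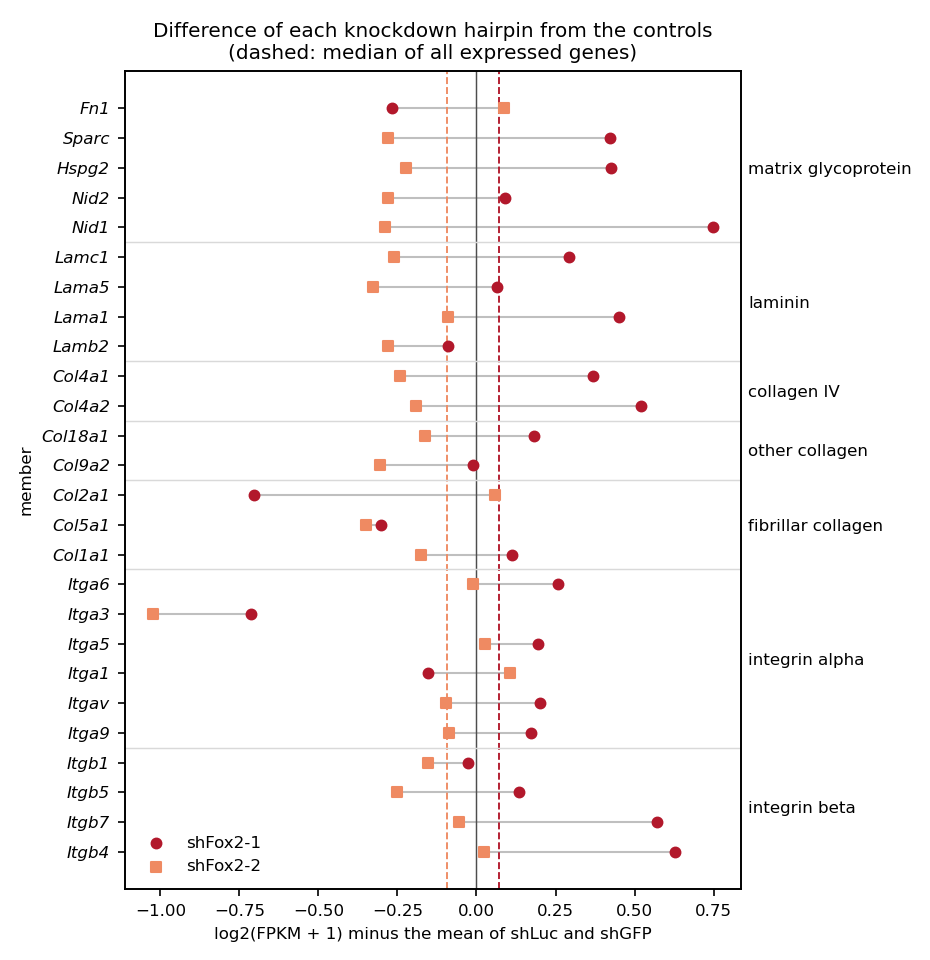
Log2(FPKM + 1) of 26 of the 27 expressed members in shFox2-1 (circles) and shFox2-2 (squares) minus the mean of shLuc and shGFP, grouped by role; grey lines join the hairpins, and dashed lines mark the median of all expressed genes, 0.07 and -0.09. Itga3 and Col5a1 lie left of 0 with both hairpins by at least 0.30, while most basement membrane genes lie right of 0 with shFox2-1 and left of it with shFox2-2.

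The members were also grouped as basement membrane components, a grouping made after these values were seen, so its counts are a description. Of 21 such members, 11 were expressed, including Lama1, Lama5, Lamb2, Lamc1, Col4a1, Col4a2, Nid1, Nid2, Hspg2 and Col18a1. The shFox2-1 value lay above both controls in 10 of the 11 and the shFox2-2 value below both in 10, where 50.2% and 54.2% of expressed genes did. After scaling to the median gene these counts were 8 and 9, against 38.5% and 35.5%. The exception with shFox2-1 by values was Lamb2. The median log2 difference was 0.37 with shFox2-1 and -0.24 with shFox2-2, or 0.30 and -0.15 relative to the median gene. Over the 5 glycoproteins, Fn1 included, the medians were 0.42 and -0.28. Some genes listed here as markers of other cell types were also high with shFox2-1, which does not show that such cells were present. The 5 genes of the endothelium list summed to 26.5 and 14.1 FPKM with shFox2-1 and shFox2-2, against 13.4 and 14.2 FPKM with shLuc and shGFP. Nearly all of this was Pecam1, an adhesion molecule, at 24.1 and 11.8 FPKM, against 10.7 and 12.0 FPKM. Tek, the other expressed gene of that list, had a different order, at 1.91 and 2.03 FPKM, against 1.84 and 1.67 FPKM. Cdh5 and Kdr were under 1 FPKM in every hairpin and Emcn was listed at 0. The 5 leukocyte markers summed to 18.1 and 10.05 FPKM, against 9.51 and 9.53 FPKM, with Laptm5, a lysosomal membrane protein, at 14.0 and 5.93 FPKM, against 4.84 and 5.15 FPKM. Coro1a, an actin regulator of leukocytes and the other expressed marker of that list, had a different order, at 2.58 and 3.78 FPKM, against 4.31 and 4.17 FPKM. Ptprc, the pan-leukocyte antigen, was at 0.0766 and 0 FPKM, against 0.129 and 0 FPKM.

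The summed endoderm and fibroblast markers did not have that order. The 14 markers of primitive and parietal endoderm, cells that lay down basement membrane in the embryo, summed to 15.2 and 17.6 FPKM with shFox2-1 and shFox2-2, against 18.6 and 17.5 FPKM with shLuc and shGFP. Lrp2 and Dab2, endocytic proteins of that tissue and its 2 highest markers here, stood at 5.10 and 7.55 FPKM, against 8.17 and 8.36 FPKM, and at 3.98 and 4.74 FPKM, against 4.28 and 4.05 FPKM. In all 4 expressed markers of this list the shFox2-1 value lay below both controls. Ttr was listed at 0, and Sox17, Gata6 and Afp were below 1 FPKM in every hairpin. Gata6, Sox7 and Cubn, each below 1 FPKM, were high with shFox2-1 and low with shFox2-2 by value, with overlapping intervals. The 11 fibroblast markers found summed to 27.6 and 29.6 FPKM, against 26.5 and 31.2 FPKM, with the smooth muscle proteins Tagln at 20.5 and 23.8 FPKM, against 21.5 and 26.3 FPKM, and Acta2 at 4.31 and 1.38 FPKM, against 1.97 and 1.71 FPKM. Acta2 alone among the 3 expressed markers of that list had the order of the basement membrane genes, with its shFox2-1 interval above both controls; Lum was listed at 0. Among the ES cell markers the intervals of Sall4, a pluripotency factor, separated, with 91.4 and 87.7 FPKM, against 71.0 and 72.3 FPKM. By value, shFox2-1 lay above both controls in 7 of 10 ES cell markers, against 50.2% of expressed genes, and shFox2-2 lay below both in 6, against 54.2%. After scaling to the median gene these counts were again 7 and 6, against 38.5% and 35.5%. The shFox2-1 interval lay above both control intervals in 4, against 5.44%. Besides Sall4, the 4 were the transcription factor genes Zfp42, Klf4 and Esrrb. Klf4 stood at 27.0 and 13.3 FPKM with shFox2-1 and shFox2-2, against 15.0 and 15.0 FPKM with shLuc and shGFP, and Esrrb at 43.4 and 26.3 FPKM, against 30.8 and 34.2 FPKM, both high with shFox2-1 and low with shFox2-2. Zfp42 stood at 189 and 114 FPKM, against 109.6 and 116 FPKM. By value Sox2 and Fgf4 also had the order of Klf4 and Esrrb, with shFox2-1 intervals that overlapped those of both controls. The remaining ES cell markers did not have that order. The part of these markers' cell types or states in the members' values was not tested.

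The listed partners of the members showed no separated gene. Over all expressed genes only 0.119% separated on the lower side and 0.174% on the higher side. A count of 0 in lists of this size therefore says little about these genes. Of 30 listed genes of the integrin adhesion complex 27 were found and 25 were expressed, and of these 0 passed limma and 0 had separated intervals; the most abundant were Actn4, which crosslinks actin, at 84.0 and 60.5 FPKM with shFox2-1 and shFox2-2, against 62.4 and 78.5 FPKM with shLuc and shGFP, and Flna, filamin, at 44.5 and 42.1 FPKM, against 46.6 and 51.0 FPKM. Of 15 other matrix receptors, 0 separated; Rpsa, a ribosomal protein also known as a laminin-binding protein, stood at 179 and 174 FPKM, against 162 and 171 FPKM, and Cd9, a tetraspanin that associates with integrins, at 70.3 and 62.6 FPKM, against 55.1 and 51.7 FPKM. Cd9 was higher by value with both knockdown hairpins than with both controls, as were 14.3% of expressed genes. Its unadjusted limma p was 0.0384, and 2.3% of tested genes were higher at an unadjusted limma p under 0.05.

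Of 16 expressed genes that modify or secrete collagen, 0 separated, and P4hb, a subunit of prolyl hydroxylase, stood at 87.5 and 73.2 FPKM with shFox2-1 and shFox2-2, against 80.1 and 91.1 FPKM with shLuc and shGFP. Ppib, a collagen-folding isomerase, stood at 62.7 and 50.8 FPKM, against 55.7 and 64.3 FPKM. Of 9 other matrix proteins, 0 separated, and Agrn, agrin, a basement membrane proteoglycan, stood at 40.7 and 42.2 FPKM, against 48.1 and 43.4 FPKM. Vcan, versican, stood at 9.06 and 4.68 FPKM, against 6.21 and 4.7997 FPKM. Of 15 proteases and inhibitors, 0 separated, and Bsg, an inducer of matrix metalloproteinases, stood at 166 and 181 FPKM, against 170 and 185 FPKM. Timp1, a metalloproteinase inhibitor, stood at 14.5 and 16.1 FPKM, against 14.7 and 17.1 FPKM.

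The list of iCLIP clusters held 35639 clusters enriched in FHFOX2 over UntagFOX2; coverage, fold over the untagged library and q-value of each cluster are the authors'. Of these, 152 overlapped a member's locus by at least 1 base, in 31 members. Among expressed members 19 of 27 (70.4%) had a cluster, against 54.7% of expressed genes. Loci of members are long and clusters follow length and level, so the members were also set against genes of like level and length. At 20 FPKM or more and 50 kb or more, 5 of 5 members had a cluster, against 90.8% of 541 genes, with a median of 14 clusters, against 8. At 5 to 20 FPKM and 50 kb or more, 7 of 8 members had one, against 91.1% of 1240 genes, with a median of 2 clusters, against 6. At 1 to 5 FPKM and under 50 kb, 2 of 6 members had one, against 28.5% of 3393 genes. At 1 to 5 FPKM and 50 kb or more, 2 of 4 members had one, against 78.2% of 1245 genes, with a median of 1 cluster, against 3. Under 50 kb, 1 of 2 members at 5 to 20 FPKM had one, against 51.6% of 3630 genes, and 2 of 2 at 20 FPKM or more, against 57.3% of 2583 genes. No difference between members and other genes was tested.

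**Figure D4:**
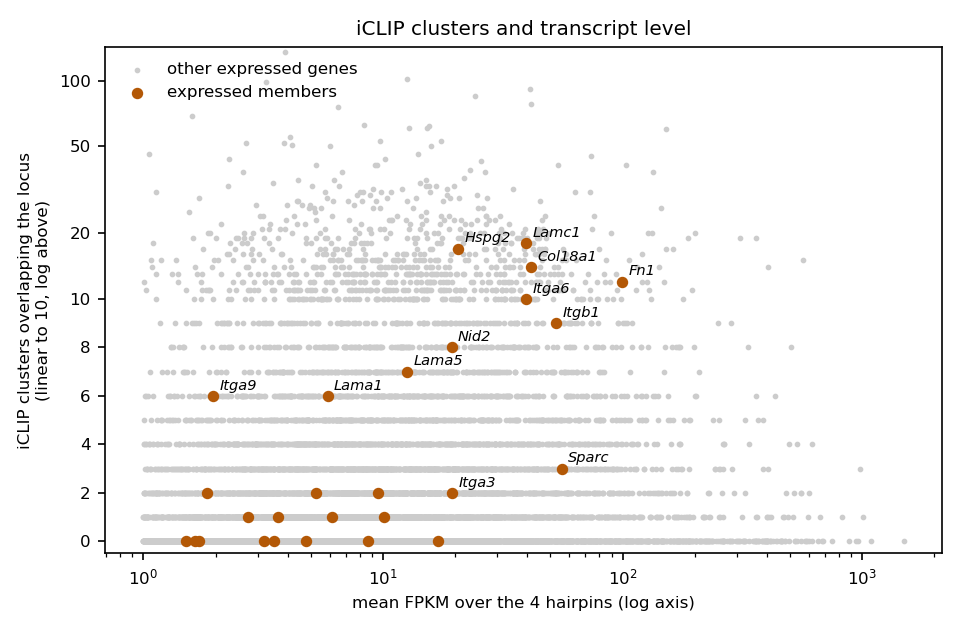
Number of iCLIP clusters overlapping the locus (linear to 10, log above) against mean FPKM over the 4 hairpins (log axis) for the 27 expressed members and all other expressed genes. Lamc1 (18), Hspg2 (17), Col18a1 (14), Fn1 (12) and Itga6 (10) have the most among expressed members and lie within the cloud of other genes.

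The 5 member clusters of highest coverage lay in Fn1, Nid2, Itga3 and Lamc1. In Fn1, chr1:71659046-71660309 on the minus strand had a coverage of 84349 and a fold of 5.94 over the untagged library, the 10th highest coverage of the list. In Nid2, a pair of neighbouring clusters at chr14:20627229-20628073 and chr14:20628050-20628746 on the plus strand had coverages of 49308 and 35520 (65th and 120th) with folds of 3.78 and 4.27. In Itga3, the member with separated intervals, chr11:94923359-94923968 on the minus strand had a coverage of 38413 and a fold of 6.73, the 102nd highest of the list, 14.4 kb from the 5′ end of the locus. In Lamc1, chr1:155066874-155067398 on the minus strand had a coverage of 11253 and a fold of 2.1, the 751st highest, 1.01 kb from the 3′ end. Of these 4 genes only Itga3 had separated intervals in the knockdown, and with 1 library of each kind the coverages carry no replicate error.

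Most clusters lay inside the locus. Of 116 clusters that carry an expressed member's own ID, 99 (85.3%) lay more than 2000 bases from both ends, 11 (9.48%) within 2000 bases of the 3′ end and 6 (5.17%) within 2000 bases of the 5′ end. Over 23150 such clusters of all expressed genes the shares were 85.9%, 10.6% and 3.48%, so the members were placed much like the rest. Their median coverage was 491.5, against 375, and 37.1% had no coverage in the untagged library to form a fold, against 44.5%. Exon, intron and UTR were not analysed here, because no mm9 annotation was used.

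The genes differed in where their clusters were. Lamc1 had 18, of which 3 were within 2000 bases of each end. Hspg2 had 17 and Col18a1 14, all internal; the highest of Hspg2 had a coverage of 5020 and that of Col18a1 2850 with a fold of 25.45. Itga6 had 10, of which 3 lay side by side between 52.1% and 53.1% of the locus with coverages of 4137, 920 and 3890. Itgb1 had 9, the highest of them (coverage 5078) 0.206 kb from the 3′ end. All 3 clusters of Sparc lay within 2000 bases of the 3′ end, with coverages of 5392, 3267 and 687. The only cluster of Col4a1 and of Nid1 also lay there, with folds of 1.17 and 1.12, near the smallest of the list, 1.05. Lama5 had 7, all internal, the highest with a coverage of 8783 and a fold of 8.77.

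**Figure D5:**
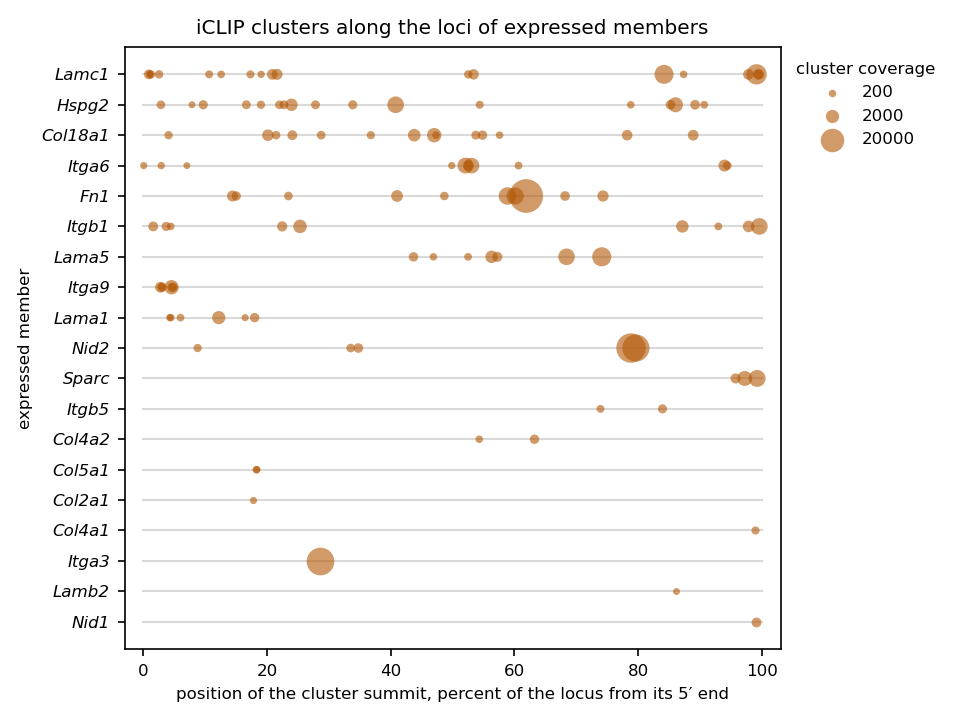
Position of each cluster summit as percent of the locus from its 5′ end, for clusters that carry the ID of an expressed member; circle area grows with the square root of coverage. The highest clusters of Fn1 (61.9%), Nid2 (78.8% and 79.6%) and Itga3 (28.6%) are internal, and those of Sparc are at the 3′ end.

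Some overlaps belong to a neighbour. Of the 152 overlaps, 17 carry the ID of another gene: 2 of the 12 in Fn1 carry Apol7d, 3 of the 8 in Nid2 carry Rtraf, 3 in Col9a3 carry Tcfl5, 1 of the 2 in Itga3 carries Pdk2, and all 8 in Col10a1 carry Nt5dc1, so Col10a1, at 0.0022 FPKM, had none of its own. The table gives Fn1, Lamc1, Itgb4, Itga3 and Nid2 the same locus as another entry, so distances and percentages in these genes refer to the shared locus. Clusters were also found in members with few transcripts: 12 of the 53 below 1 FPKM had an overlapping cluster, 10 under their own ID. Col13a1, a transmembrane collagen at 0.398 and 0.208 FPKM with shFox2-1 and shFox2-2, against 0 and 0.372 FPKM with shLuc and shGFP, had 10 clusters, the highest with a coverage of 2546 and a fold of 11.37. Of the 19 own clusters of members below 1 FPKM, 78.9% had no coverage in the untagged library, against 37.1% of those of expressed members, so for most of them no finite fold exists. Neither value was computed over all genes below 1 FPKM, so neither can be called particular to the members.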

How the data were processed

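Pooled FPKM values and their bounds were used as deposited by the authors, 1 per hairpin; per the labels each hairpin had 2 libraries from infections in duplicate, and per the submitters' processing notes reads were handled with TopHat2 2.0 and Cufflinks 2.1.1 on mm9. The sources used here do not give library depth, the level of the bounds, strand or the scaling between hairpins. Upper bounds of expressed members reached a median of 12.8%, 17.7%, 13.6% and 15.1% above the value with shFox2-1, shFox2-2, shLuc and shGFP. Those of all expressed genes reached 18.6%, 23.0%, 18.3% and 19.8%, so the members' intervals separate more readily. Entries with a failed status (105) or at 0 in every hairpin (6477) were left out. Log2(FPKM + 1), which understates changes of low genes, was fitted with limma 3.58.1 in R 4.3.3 (mean-variance trend, two-sided, Benjamini-Hochberg over 20281 genes), knockdown minus control hairpins, and p-values measure only the spread between hairpins. The fit was run on simulated data with large changes, independent noise, and less spread at the level of Rbfox2 than these hairpins show. That run checks the code and does not give the power of the test on these data. Other per-hairpin descriptions carry no test. Cluster coverage, fold over the untagged library and q-value (other values) were deposited by the authors; all clusters had a coverage of at least 148 and a fold of at least 1.05. The tagged library had 16 PCR cycles and the untagged one 7 more. Cluster IDs were matched to symbols (98.8%). Members, lists and comparisons were chosen with earlier results of these data known. Named were Rbfox2, members of at least 5 FPKM, separated members, those with most clusters or highest coverage, those next to the threshold of 1 FPKM, the 3 greatest changes each way at 1 to 5 FPKM, and in other lists separated genes or else the 2 most abundant. A member that this rule names is not reported here.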

Additional observations from a re-analysis of the deposited data

Results flagged for a closer look

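In 9 named members the interval of 1 knockdown hairpin lay outside both control intervals while the value of the other knockdown hairpin lay beyond both controls on the opposite side. After scaling to the median gene this held for 5 of the 9, Fn1, Hspg2, Nid1, Col4a2 and Col2a1, and no longer for Sparc, Lama5, Col4a1 and Lama1; over all expressed genes the shares were 3.86% as deposited and 3.01% scaled. The difference between the hairpins was not tested, since each is 1 pooled value. As log2(FPKM + 1) of shFox2-1 minus that of shFox2-2, it was 0.70 for Sparc, 0.65 for Hspg2, 0.61 for Col4a1, 0.71 for Col4a2, 1.04 for Nid1, 0.54 for Lama1 and 0.39 for Lama5, with shFox2-1 the higher hairpin. It was -0.35 for Fn1 and -0.76 for Col2a1, with shFox2-1 the lower hairpin. Of the 9, Hspg2, Col4a1, Col4a2, Nid1, Lama1 and Lama5 encode parts of the basement membrane.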

How the results depend on the processing

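No paired analysis was possible because the table holds 1 pooled value per hairpin and no value per library. No member passed limma under any setting (pseudocount 0.1, genes of at least 1 FPKM, centring on the median gene, each hairpin left out), the count staying at 0. Separated intervals gave 1 member under the other settings, and with a hairpin left out 1 to 10 members: 2 without shFox2-1 (Itga3 and Lama5) and 10 without shFox2-2. Leaving a hairpin out can only keep or raise this count, so these counts are no check of Itga3. The median log2 fold change of expressed members was between -0.18 (without shFox2-1) and 0.18 (without shFox2-2) with a hairpin left out, below 0 also without shLuc (-0.02), and 0.01 to 0.03 otherwise. Clusters in member loci numbered 101 at a fold of at least 4 and 81 at or above the median coverage, against 152; members with a cluster numbered 15 to 20, against 19, where 20 is by the authors' gene ID, a setting chosen after seeing the data. Itga3 was lower under every setting (-1.02 to -0.71), which with a hairpin left out follows from the values that did not overlap. With all hairpins its adjusted limma p lay between 0.0802 and 0.9996. Rbfox2 passed on genes of at least 1 FPKM (adjusted limma p 0.0471) and centred (0.00102). Of 29 genes, 20 changed sign with a hairpin left out, given here with their range. Without shFox2-1 these were Fn1 (-0.27 to 0.087), Itga6 (-0.011 to 0.26), Hspg2 (-0.22 to 0.43), Col4a1 (-0.24 to 0.37), Nid1 (-0.29 to 0.75), Lama1 (-0.089 to 0.45), Col4a2 (-0.19 to 0.52), Itga7 (-0.13 to 0.45), Col2a1 (-0.70 to 0.057) and Itgb7 (-0.057 to 0.57), and without shFox2-1 or shLuc Sparc (-0.28 to 0.42), Col18a1 (-0.16 to 0.18) and Lamc1 (-0.26 to 0.29). Itga1 (-0.25 to 0.20) did so without shFox2-1 or shGFP, Nid2 (-0.28 to 0.091) and Lama5 (-0.33 to 0.065) without shFox2-2, Itgb5 (-0.25 to 0.13) without shFox2-2 or shGFP, Col1a1 (-0.18 to 0.11) and Lamb3 (-0.036 to 0.15) without shFox2-2 or shLuc, and Col13a1 (-0.078 to 0.38) without shLuc. The cause was not tested. With 2 hairpins in each arm, and depth unknown, small differences cannot be resolved. Larger ones can be missed too, since the main fit did not call Rbfox2 itself (adjusted limma p 0.913).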

Other observations

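Lamb1, the beta chain of most laminins, is named Lamb1-1 in the table and so fell outside the rule. It stood at 15.3 and 13.2 FPKM with shFox2-1 and shFox2-2, against 14.8 and 15.9 FPKM with shLuc and shGFP, with overlapping intervals. Itga2b, the platelet integrin chain, also fell outside it and averaged 0.42 FPKM. By the authors' gene ID, 2 clusters belong to Itgav, although no cluster overlaps its locus in the table.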
